A study of Homo sapiens with 8 samples.

Results

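The kinesins are the genes whose symbol is KIF followed by a digit. On the arrays of this study 42 such symbols had a probe set with exactly 1 gene symbol, out of 19775 genes in all. Of these, 38 are kinesin genes and 4 are antisense RNAs named after a kinesin (KIF1C-AS1, KIF9-AS1, KIF23-AS1 and KIF25-AS1). The kinesins were divided by textbook role into 11 mitotic motors, 15 transport motors and 12 others. The mitotic list had 12 names, and KIF4B had no probe set of its own, so the KIF4A probe set may also read that near-identical retrogene.

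RNA came from A375, a human melanoma cell line with an activating BRAF mutation, measured on 8 Affymetrix arrays with 1 array per condition. All cells were transfected with siRNA, either nontargeting (siCont), against BRAF (siBRAF) or against ATF4 (siATF4). The siCont, siBRAF and siATF4 cells in normal medium and the siCont and siBRAF cells in glutamine-free medium (GlnF), kept for 18 h per the labels' protocols, form a set of 5 arrays. The siCont cells in DMSO, the siCont cells in 10 uM vemurafenib (VEM), which inhibits mutant BRAF, and the siATF4 cells in vemurafenib, treated for 4 h, form a set of 3 arrays. The medium was RPMI1640 with 10% serum throughout, apart from the missing glutamine.

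Kinesins are motor proteins that use ATP to walk along microtubules or to take their ends apart. Mitotic kinesins build the spindle, align and move chromosomes and complete cell division, and in cycling cells their transcripts accumulate toward mitosis. Transport kinesins carry vesicles, mitochondria, melanosomes and ciliary cargo in dividing and resting cells alike. In melanocytes KIF13A moves melanosomal cargo, and in BRAF-mutant melanoma the BRAF-MEK-ERK pathway drives entry into the cell cycle.

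Median intensities were 14.8 to 15.5 in the set of 5 arrays and 36.4 to 36.9 in the set of 3, so no level of the first set is compared with a level of the second. Each condition has 1 array, so a single difference carries no p-value and could not be checked against replicates, and the number of arrays limits the precision. ATF4 itself differed by -1.76 in log2(intensity + 1) with siATF4 in normal medium and by -2.59 in vemurafenib, while BRAF had no probe set with 1 symbol and the siBRAF label was not checked on its target. The 3' over 5' actin difference, a sign of RNA quality, was 0.16 to 0.28 in the first set, highest on the siCont glutamine-free array, and -0.18 to -0.0017 in the second. Among melanocyte markers MITF, SOX10, S100A1, S100B and TYR were above the array median on all 8 arrays. TYR lay near it, at 15.4 to 17.7 in the first set. PMEL reached it on 3 arrays, and MLANA was below it on all 8. Markers of leukocytes, endothelium and epithelium (8 measured) summed to 98.2 to 110 in the first set and 215 to 239 in the second. Of these, 3 (CD3E, PECAM1 and KRT5) were at or above the array median on all 8 arrays, at 18.4 to 32.2 in the first set. CDH1, EPCAM and PTPRC read 2.7 to 5.5 there.

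Short windows around the annotated start of 8 mitotic and 2 transport kinesins are shown so that the letters common among mitotic promoters can be read beside their absence in KIF13A and KIF3A. In many late cell cycle genes a cell cycle gene homology region, TTTGAA or the related TTCGAA, lies close to the start and near a CCAAT box. The sequences come from RefSeq (GRCh38.p14), read in the direction of the gene, with 100 bases before the start and 20 from it on. Capitals mark TTTGAA, which reads TTCAAA on the other strand. They also mark the palindrome TTCGAA. The third motif in capitals is the CCAAT box, which on the other strand reads ATTGG.
KIF4A, chrX:70290004-70290123, + strand: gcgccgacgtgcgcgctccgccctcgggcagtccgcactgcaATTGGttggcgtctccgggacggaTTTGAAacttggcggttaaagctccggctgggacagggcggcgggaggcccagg
KIF11, chr10:92593030-92593149, + strand: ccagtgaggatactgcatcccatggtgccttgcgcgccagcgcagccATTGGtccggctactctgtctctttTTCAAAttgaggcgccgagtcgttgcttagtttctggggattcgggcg
KIF15, chr3:44761694-44761813, + strand: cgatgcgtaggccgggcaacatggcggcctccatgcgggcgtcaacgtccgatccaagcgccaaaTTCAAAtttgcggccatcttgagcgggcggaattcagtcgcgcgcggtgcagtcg
KIF18A, chr11:28108137-28108256, - strand: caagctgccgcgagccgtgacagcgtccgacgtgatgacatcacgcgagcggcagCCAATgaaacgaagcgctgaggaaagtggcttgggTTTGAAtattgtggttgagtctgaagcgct
KIF23, chr15:69414249-69414368, + strand: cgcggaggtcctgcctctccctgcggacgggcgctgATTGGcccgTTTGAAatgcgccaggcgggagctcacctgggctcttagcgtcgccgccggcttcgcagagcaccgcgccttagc
KIF14, chr1:200620732-200620851, - strand: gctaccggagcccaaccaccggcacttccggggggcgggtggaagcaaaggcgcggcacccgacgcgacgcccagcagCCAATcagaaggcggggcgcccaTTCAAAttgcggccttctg
KIF22, chr16:29790651-29790770, + strand: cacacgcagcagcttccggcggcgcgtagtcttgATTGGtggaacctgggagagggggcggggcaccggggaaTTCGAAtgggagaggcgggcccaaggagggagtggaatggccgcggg
KIF20A, chr5:138179012-138179131, + strand: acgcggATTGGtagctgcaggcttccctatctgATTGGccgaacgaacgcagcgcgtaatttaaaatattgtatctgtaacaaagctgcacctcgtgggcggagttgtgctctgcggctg
KIF13A, chr6:17987616-17987735, - strand: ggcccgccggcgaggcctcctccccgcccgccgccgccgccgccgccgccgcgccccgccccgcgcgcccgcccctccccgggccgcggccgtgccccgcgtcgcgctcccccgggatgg
KIF3A, chr5:132737527-132737646, - strand: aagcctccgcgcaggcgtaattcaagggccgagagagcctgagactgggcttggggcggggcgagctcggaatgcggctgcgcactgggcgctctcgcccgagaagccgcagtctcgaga

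Over the whole 300 bases of each RefSeq promoter (250 before the start to 50 after it, both strands searched), TTTGAA was found for 8 of the 11 mitotic kinesins (KIF4A, KIF11, KIF14, KIF15, KIF18A, KIF18B, KIF20B and KIF23). The share was 66.7% of their 12 promoters, against 15.2% of all 35116 promoters. Of the transport kinesins, 12 of the 15 had an entry, and 1 of their 17 promoters (5.88%) held TTTGAA, that of KIF5B at position -140, outside the short window. The other kinesins had it in 0 of 12 promoters. KIF22 had TTCGAA, which 1.45% of all promoters hold, at position -27. CCAAT stood in 75% of mitotic, 29.4% of transport and 34.6% of all promoters. Of the mitotic kinesins KIF2C had none of the 3 motifs, and KIF20A had CCAAT at -94 and -67 but neither of the others. The matches of KIF11 (-28), KIF4A (-34), KIF15 (-35) and KIF23 (-55) lay before the start, and those of KIF14 (2), KIF18B (3) and KIF20B (25 and 31) after it. Among the mitotic partner genes described further on, 13 of 16 promoters (81.2%), belonging to 11 of 13 genes with an entry, held TTTGAA. These are matches of letters in a window and were not tested as sites.

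BRAF knockdown separated the mitotic from the transport kinesins most clearly. All 11 mitotic kinesins were lower by 2-fold or more in siBRAF cells in normal medium, from -1.61 (KIF22) to -3.11 (KIF14) on the log2(intensity + 1) scale, and the class median was -2.61. The 15 transport kinesins had a median of -0.01, as did all 19775 genes (-0.01). KIF13A and KIF13B were at least 2-fold higher and KIF21B lower. Among all 13350 genes that passed the filter, 7.6% were at least 2-fold lower, 7.15% at least 2-fold higher and 14.8% either. The proliferation markers MKI67 (-3.05) and TOP2A (-3.04) stood as low, and their part in the result was not tested. The 7 melanocyte markers measured had a median of 0.40, from -0.32 (PMEL) to 2.17 (S100B). All 11 mitotic and 13 of the 15 transport kinesins passed it in this comparison.

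Without glutamine, 10 of the 11 mitotic kinesins stayed below siCont by 2-fold or more in siBRAF cells (class median -1.61). Of 13499 genes, 10.8% were at least 2-fold lower, 12.8% at least 2-fold higher and 23.7% either. The exception was KIF20A, at 0.04. The transport class had a median of 0.33, with KIF13A and KIF3A higher and KIF21B lower. These siBRAF differences in the 2 media share no array.

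**Figure D1:**
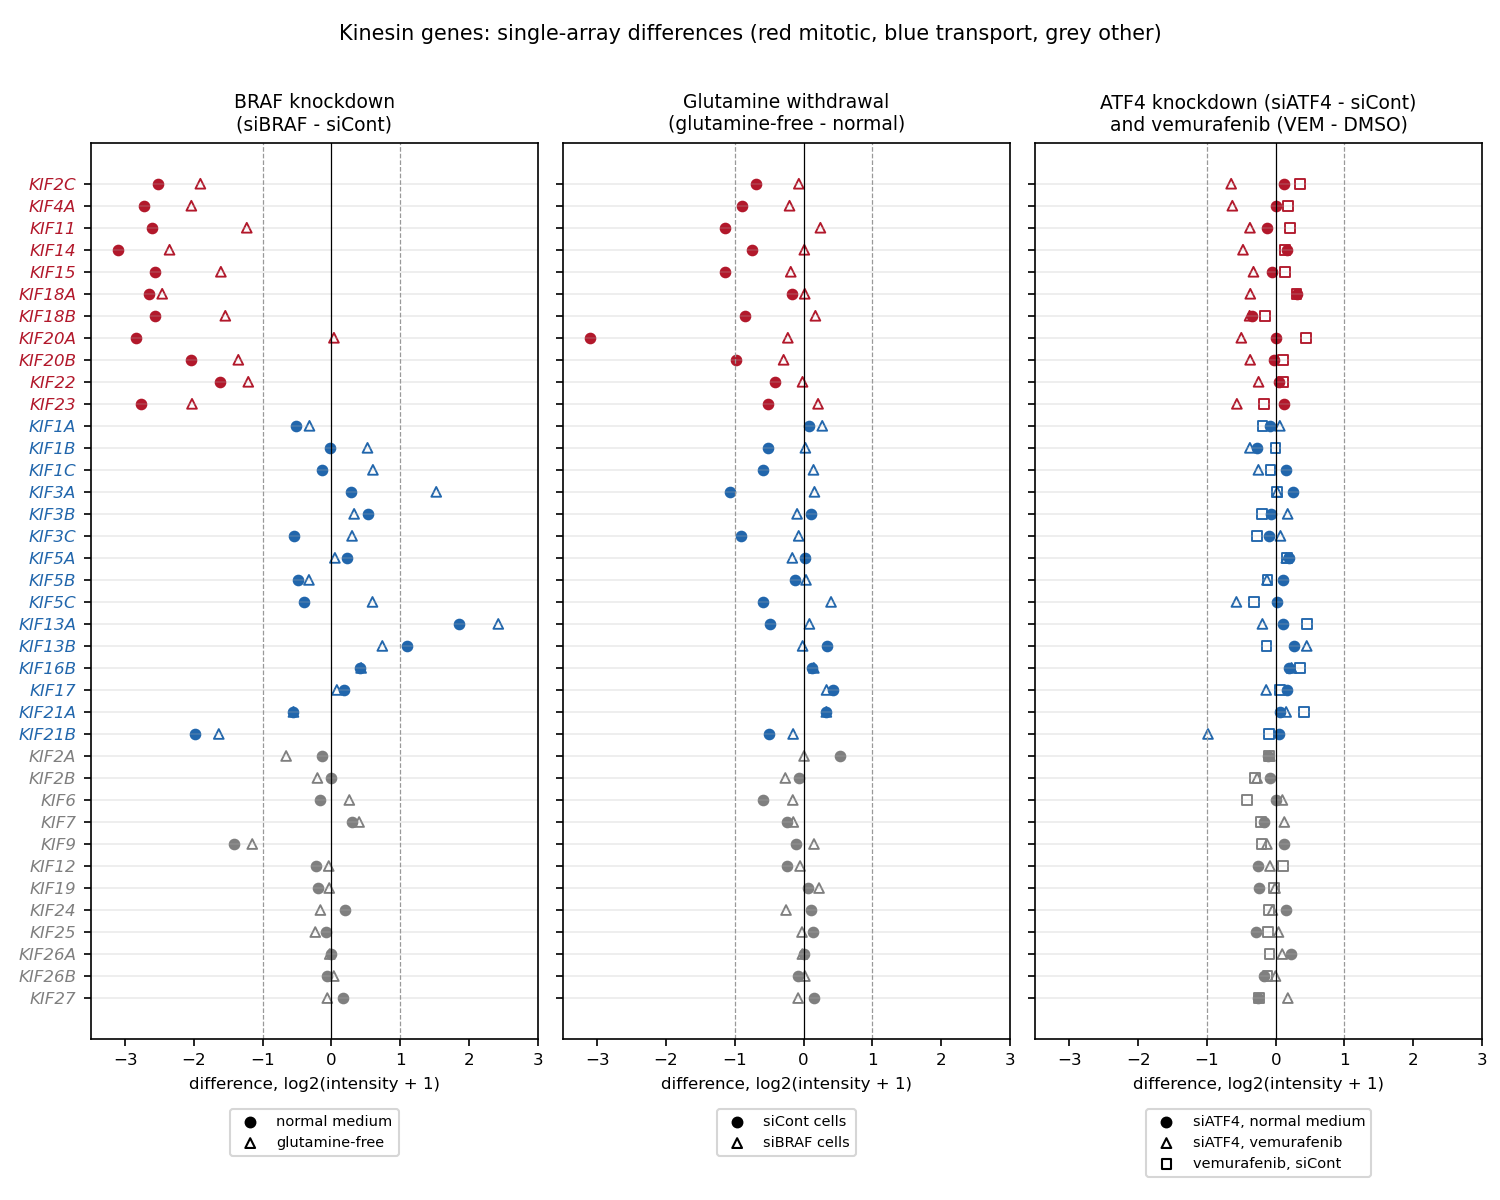
Each point is the log2(intensity + 1) difference between 2 single arrays for 1 of 38 kinesins (rows), with circles, triangles and squares for the comparisons named under each panel, in red for mitotic, blue for transport and grey for other kinesins, with dashed lines at 2-fold. The red points lie left of the dashed line with siBRAF in normal medium (median -2.61), while most blue points lie between the dashed lines.

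The spindle motors KIF11 and KIF15 push the poles apart. KIF11, also called Eg5, read 444 with siCont and 71.8 with siBRAF in normal medium, 201 and 85.3 without glutamine, and 404 with siATF4. Both siBRAF arrays lay below every other array of the set, and the siCont glutamine-free array lay between. KIF15, which can stand in for KIF11, read 156 and 25.5 in normal medium, 69.8 and 22.3 without glutamine, and 149 with siATF4. Here too both siBRAF arrays lay below the other 3, with siBRAF differences of -2.57 in normal medium and -1.61 without glutamine. The siBRAF values of KIF15 are not far above the array medians of 15.5 and 15.3, so these sizes depend in part on background.

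The chromokinesins KIF4A and KIF22 bind chromosome arms. KIF4A, which also shortens the central spindle microtubules, read 291 with siCont and 43.2 with siBRAF in normal medium, 156 and 37.4 without glutamine, and 291 with siATF4. KIF22, or Kid, read 175 and 56.7, 131 and 56.1, and 181 on the same arrays. Of the mitotic kinesins KIF22 had the smallest siBRAF difference in normal medium, and its second probe set gave -1.85 against -1.61.

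KIF2C, KIF18A and KIF18B take microtubule ends apart or limit their length, at kinetochores and at growing ends. KIF2C, or MCAK, read 686 with siCont and 118 with siBRAF in normal medium, 424 and 113 without glutamine, and 744 with siATF4. KIF18B read 350 and 58.2, 193 and 65.7, and 275. KIF18A, which damps chromosome movements at the plate, read 107 and 16.1, 94.4 and 16.3, and 132. The siBRAF values of KIF18A lie close to the array medians of 15.5 and 15.3, so the size of its difference (-2.65 and -2.46) depends on background and on the added constant.

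KIF14, KIF20A, KIF20B and KIF23 work at the central spindle and in cytokinesis. KIF23, the motor of the centralspindlin complex, read 241 with siCont and 34.7 with siBRAF in normal medium, 168 and 40.4 without glutamine, and 263 with siATF4. KIF14, which recruits citron kinase to the midbody, read 398 and 45.2, 237 and 45.6, and 447. KIF20B read 243 and 58.3, 123 and 47.5, and 238. All 3 were lowest on the siBRAF arrays in both media. A second KIF23 probe set, near the array median, gave -0.76 in normal and 0.12 in glutamine-free medium where the chosen one gave -2.76 and -2.03. KIF20A, or MKLP2, which brings the chromosomal passenger complex to the central spindle, read 655 and 90.3 in normal medium, 74.9 and 76.9 without glutamine, and 656 with siATF4. KIF20A was thus as low on the siCont glutamine-free array as on both siBRAF arrays, unlike the other 10.

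**Figure D2:**
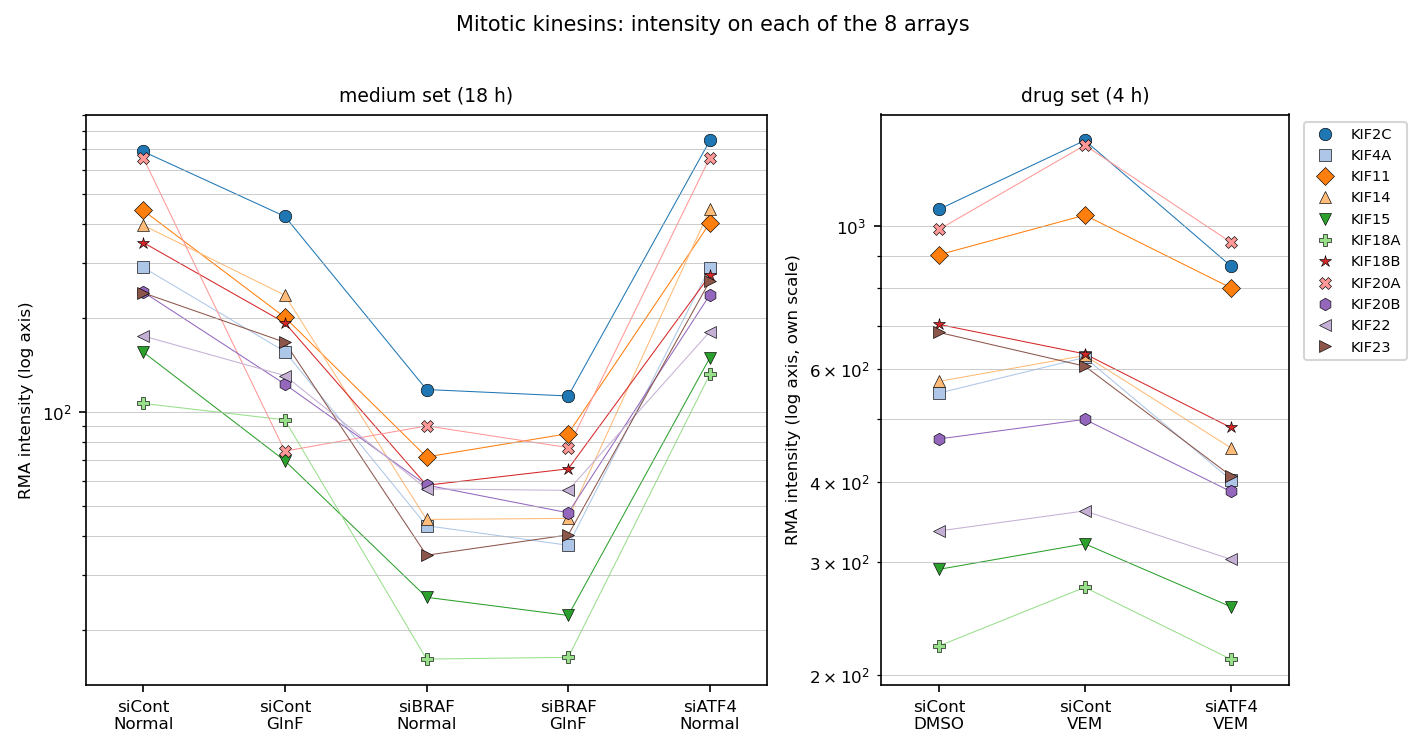
Intensity of the 11 mitotic kinesins (log axis) on the 5 arrays of the medium set and, on a scale of its own, on the 3 arrays of the drug set. Points are single arrays, lines only join a gene's points, and heights of different genes are not comparable. All 11 are low on both siBRAF arrays, and KIF20A alone is as low on the siCont glutamine-free array (74.9).

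An additive model over all 8 arrays gave the only test. Its 2 residual degrees of freedom are the departures of the siBRAF effect between media and of the siATF4 effect between settings, so a call means an effect larger than these departures and not larger than the error between cultures. With siBRAF, 10 of the 11 mitotic kinesins fell (limma, Benjamini-Hochberg adjusted p below 0.05 over 14220 genes), against 10.9% of all genes tested that fell, 12.2% that rose and 23.1% that changed. The estimates of the 10 ran from -1.46 for KIF22 (SE 0.19, limma adjusted p = 0.0127) to -2.84 for KIF14 (SE 0.29, limma adjusted p = 0.00867). KIF18A had the lowest limma adjusted p of the class (0.00671, estimate -2.65, SE 0.22). KIF20A was estimated at -1.57 with an SE of 0.72 and did not pass (limma adjusted p = 0.183). Of 14 transport kinesins tested, 3 changed, a share near the 23.1% of all genes. KIF13A rose by 2.09 (SE 0.21, limma adjusted p = 0.0086) and KIF13B rose by 0.95 (SE 0.17, limma adjusted p = 0.0231). KIF21B fell by 1.96 (SE 0.30, limma adjusted p = 0.0172). The count of 10 became 6 when the siATF4 normal-medium, siATF4 vemurafenib or siCont vemurafenib array was left out, where only the siBRAF departures remain as residual. Of all genes tested, 4.81%, 4.85% and 4.89% changed in these fits. The 3 transport calls became 8, 7 and 8 without the siCont glutamine-free, siBRAF normal-medium and siBRAF glutamine-free array, where 38.1%, 48.5% and 38.1% of all genes changed, so the share of the 14 transport kinesins is near that of all genes without the siBRAF normal-medium array.

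**Figure D3:**
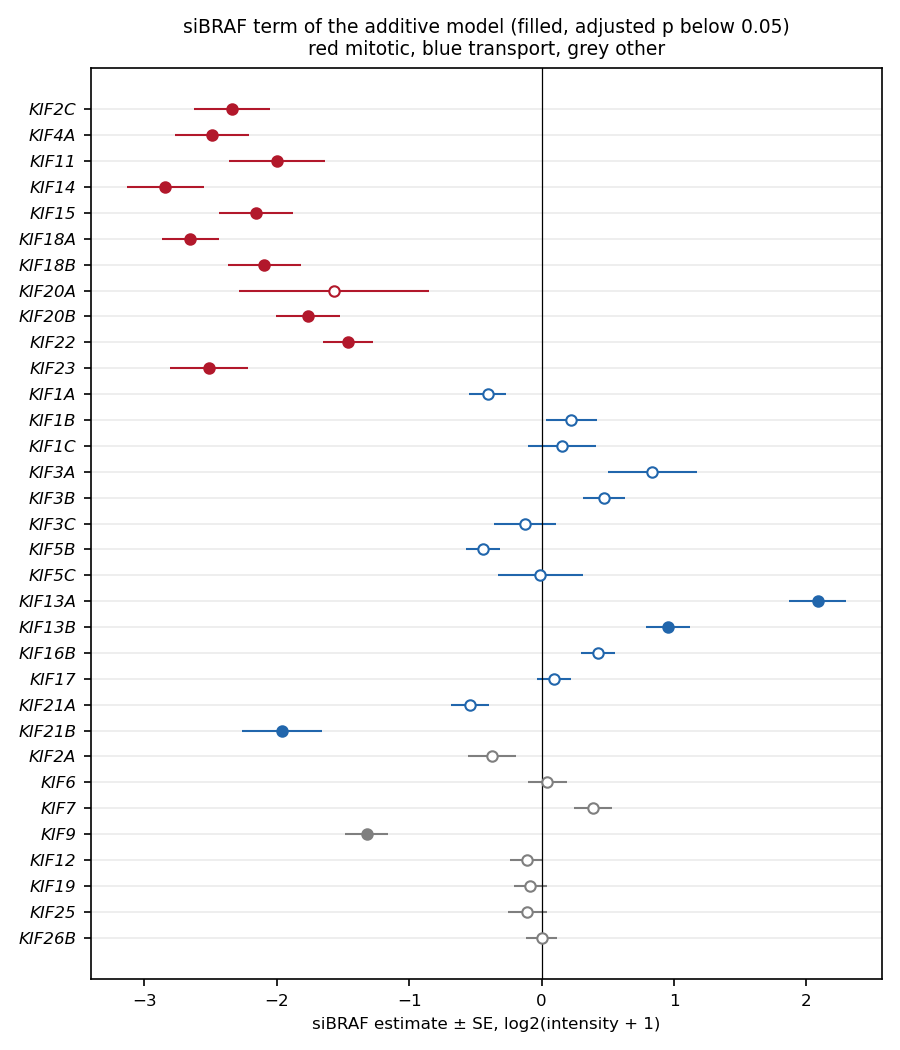
Estimates of the siBRAF effect (log2(intensity + 1), points) with their standard errors (bars) from the additive limma model, for the 33 kinesins that were tested. Filled points have an adjusted p below 0.05, which holds for 10 of 11 mitotic kinesins, for KIF13A, KIF13B and KIF21B among the transport kinesins, and for KIF9.

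KIF13A and KIF13B, cargo motors of the kinesin-3 family, were the transport kinesins that rose with siBRAF in the model. KIF13A, which carries melanosome proteins and endosomal cargo, read 171 with siCont and 625 with siBRAF in normal medium, 122 and 663 without glutamine, and 184 with siATF4. Both siBRAF arrays lay far above the other 3, by 3.63-fold in normal and 5.38-fold in glutamine-free medium. The other probe sets of KIF13A that passed the filter gave differences from 0.91 to 1.72 in normal and from 1.45 to 2.25 in glutamine-free medium, and a pair of probe sets below the array median gave 0.26 and 0.03 in normal medium. KIF13B read 62.9 and 135 in normal medium, 79.8 and 134 without glutamine, and 75.9 with siATF4. Its 2 siBRAF values also lay above the other 3, with a difference of 1.09 in normal and 0.74 in glutamine-free medium.

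KIF21B, a motor that also slows microtubule growth, ran with the mitotic kinesins. It read 77.9 with siCont and 18.9 with siBRAF in normal medium, 54.8 and 16.9 without glutamine, and 80.8 with siATF4. The siBRAF values approach the array median, so the size of the differences (-1.98 and -1.64) depends on background. Its relative KIF21A stood at -0.55 in both media and did not pass in the model (estimate -0.54, limma adjusted p = 0.056). A second KIF21A probe set gave -0.77 and -1.04.

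KIF3A and KIF3B pair in kinesin-2, which moves cargo into cilia. KIF3A read 157 with siCont and 193 with siBRAF in normal medium, 74.2 and 215 without glutamine, and 188 with siATF4. Only the siCont glutamine-free array was low, and siBRAF differences of 0.29 (normal) and 1.53 (glutamine-free) followed. The second KIF3A probe set gave 0.14 and 1.14. KIF3B read 248 and 361, 268 and 338, and 236, within 2-fold throughout. KIF3C, an alternative partner, had siBRAF differences of -0.54 and 0.30.

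KIF5B, the ubiquitous heavy chain of conventional kinesin, read 921 with siCont and 659 with siBRAF in normal medium, 846 and 675 without glutamine, and 986 with siATF4. KIF1B, which moves mitochondria and vesicle precursors, read 285 and 282, 200 and 288, and 235. Together with KIF3B these were, apart from KIF13A, the transport kinesins with the highest mean, and both stayed within 2-fold in each comparison. KIF1A, KIF1C, KIF5C, KIF16B and KIF17 had siBRAF differences between -0.52 (KIF1A in normal medium) and 0.60 (KIF1C and KIF5C in glutamine-free medium), and KIF5A was below the array median on all 8 arrays. A second KIF16B probe set gave -0.60 and -0.80 with siBRAF where the chosen one gave 0.41 and 0.43.

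**Figure D4:**
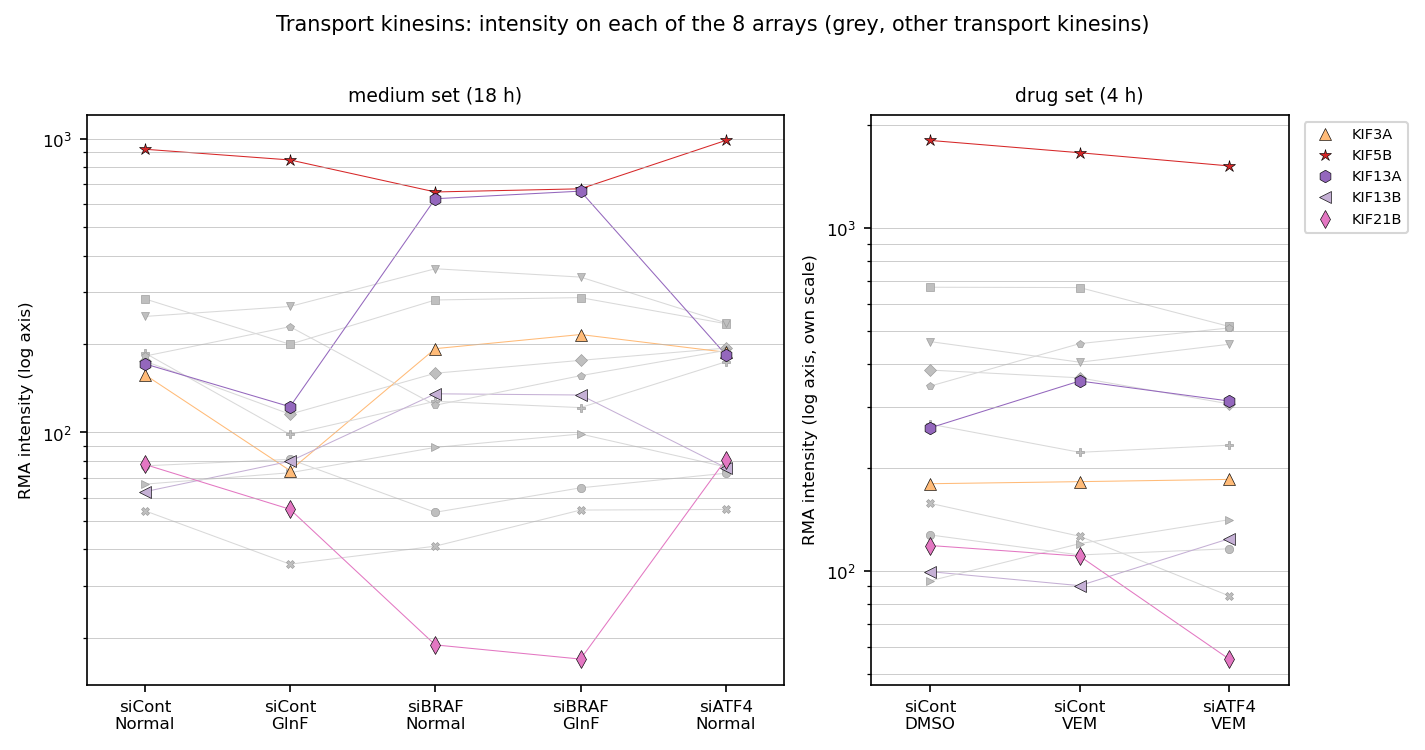
Intensity (log axis) of the 13 transport kinesins that were at or above the array median on all 8 arrays, on the medium set and, on a scale of its own, the drug set. Points are single arrays, 5 genes are coloured, and KIF13A is high (625 and 663) and KIF21B low (18.9 and 16.9) on both siBRAF arrays.

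Of the 12 other kinesins, 8 reached the array median on at least 1 array. KIF9, a kinesin of motile cilia and sperm, was the only one at least 2-fold apart, at 322 with siCont and 121 with siBRAF in normal medium, 299 and 134 without glutamine, and 349 with siATF4. It fell in the model (estimate -1.32, SE 0.16, limma adjusted p = 0.0119). The 4 KIF9 probe sets disagreed, since the only probe set without the suffix that marks shared sequence gave 0.03 and 0.10 where the chosen probe set gave -1.41 and -1.15. KIF2A, a microtubule depolymerase of spindle poles and neurites counted in neither class and singled out after its values were seen, read 419 and 382 in normal medium, 606 and 384 without glutamine, and 387 with siATF4. Its siBRAF differences of -0.13 and -0.66 lay apart from those of its relative KIF2C (-2.53 and -1.90). The remaining kinesins of this class, such as KIF7, a regulator of Hedgehog signalling, were within 2-fold in all comparisons by the chosen probe set. For KIF6 another probe set above the array median gave 1.28 and 1.48 with siBRAF where the chosen one gave -0.17 and 0.26. By the chosen probe sets none of the 4 antisense RNAs was 2-fold apart in any comparison.

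After glutamine withdrawal in siCont cells all 11 mitotic kinesins were lower, from -0.17 (KIF18A) to -3.11 (KIF20A), with a median of -0.85 against -0.12 for the transport class and -0.02 for all genes. KIF11 (-1.14), KIF15 (-1.15) and KIF20A passed 2-fold, 3 of 11, where 7.22% of 13359 genes were at least 2-fold lower and 13% were 2-fold apart either way. Without KIF20A the median of the other 10 was -0.80 and the lowest value -1.15. KIF3A (-1.07) was the only transport kinesin at least 2-fold lower, a count that became 0 with an added constant of 16 or the mean of all probe sets, and none was higher, while 5.76% of genes were. KIF3C stood at -0.91. KIF2A, at 0.53, had the highest difference of the 38. The actin 3' over 5' difference was 0.28 on this array and 0.16 on the siCont array in normal medium, and its part in these differences was not tested.

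Glutamine withdrawal in siBRAF cells was followed by no difference of 2-fold in any kinesin. The mitotic kinesins ranged from -0.29 (KIF20B) to 0.25 (KIF11) with a median of -0.01, and the transport kinesins from -0.16 (KIF5A) to 0.40 (KIF5C) with a median of 0.09. Only 0.122% of 13139 genes were at least 2-fold apart in either direction, 0.0457% higher and 0.0761% lower. ATF4 stood at -0.02 here and at 1.26 for the same withdrawal in siCont cells, and the reason was not tested. The difference between the 2 glutamine responses (siBRAF minus siCont) was positive for all 11 mitotic kinesins, from 0.19 for KIF18A to 2.88 for KIF20A, with a median of 0.74 against 0.20 for transport kinesins and 0.02 for all genes. It reached 2-fold for KIF11, KIF18B and KIF20A and for KIF3A, as it did in the positive direction for 7.55%, in the negative for 5.69% and in either for 13.2% of 13715 genes. It rests on 4 arrays and was not tested. In the model 0 of the kinesins passed for glutamine-free medium by limma (lowest adjusted p 0.508, although 1 mitotic and 1 transport kinesin had an unadjusted p below 0.05). The siATF4 term likewise gave 0 by limma (lowest adjusted p 0.953), and 0 kinesins had an unadjusted p below 0.05. For each of these terms 0 of all 14220 genes passed, so neither result is particular to the kinesins. The glutamine-free term combines the responses of siCont and siBRAF cells, and the difference between them enters the residual. It therefore cannot decide whether the siCont cells alone responded.

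ATF4 knockdown in normal medium left all kinesins within 2-fold. The mitotic kinesins had a median of 0.00, from -0.35 (KIF18B) to 0.31 (KIF18A), and the transport kinesins one of 0.10. Over 13172 genes, 0.858% were at least 2-fold apart, 0.471% higher and 0.387% lower.

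After 4 h of vemurafenib no kinesin was 2-fold apart from DMSO. The mitotic differences ran from -0.17 (KIF23) to 0.44 (KIF20A), with a median of 0.13, 9 of 11 above 0. Of 13160 genes, 2.78% reached 2-fold, 0.859% higher and 1.92% lower. KIF20A read 989 in DMSO and 1337 in vemurafenib, KIF2C 1063 and 1361, and KIF11 903 and 1041. KIF13A, high with siBRAF, stood at 0.45 (261 and 358), the highest of the transport kinesins, and KIF21A followed at 0.41. The other KIF13A probe set that passed the filter gave 0.39. The standard deviation of the differences over all genes that passed was 0.40. The 4 h treatment and the knockdown differ in agent, time and set of arrays, and their values stand side by side only.

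With siATF4 in vemurafenib all 11 mitotic kinesins were below their siCont vemurafenib values, from -0.25 (KIF22) to -0.65 (KIF2C), with a median of -0.38 against 0.02 for transport kinesins and 0.01 for all genes. The mitotic partners described further on had a median of -0.41, and MKI67 (-0.45) and TOP2A (-0.41) were also lower. The actin 3' over 5' difference was -0.0017 on the siATF4 vemurafenib array, -0.069 on the siCont vemurafenib array and -0.18 in DMSO. The part of these in the result was not tested. None of the 11 reached 2-fold, and 0.934% of 13173 genes did, 0.205% higher and 0.729% lower. KIF2C read 868, KIF20A 945, KIF11 802, KIF23 409 (605 with siCont) and KIF4A 403 (625 with siCont). This comparison shares the siCont vemurafenib array with the one before. In DMSO with siCont KIF2C read 1063, KIF20A 989, KIF11 903, KIF23 683 and KIF4A 550. The siATF4 vemurafenib values were lower for these 5, but both siRNA and drug differ between those arrays. No siATF4 array in DMSO was in the set, so the 2 cannot be told apart there. KIF21B, at 118 in DMSO and 110 in vemurafenib, read 55.2 with siATF4 in vemurafenib, a difference of -0.99 that stopped just short of 2-fold, while with siATF4 in normal medium it stood at 0.05. With quantile normalization 1 transport kinesin passed 2-fold here. KIF13B read 99.4, 90.5 and 124 on the 3 arrays.

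The remaining mitotic kinesins were also within 2-fold on the drug arrays. In DMSO, vemurafenib and siATF4 with vemurafenib KIF14 read 573, 629 and 452, KIF15 read 292, 320 and 255, and KIF18A read 222, 274 and 212. KIF18B read 703, 633 and 486, KIF20B read 466, 500.1 and 386, and KIF22 read 335, 360.1 and 303. The siATF4 array was the lowest of the 3 for each of the 11 mitotic kinesins. Of the transport kinesins KIF5B, KIF1B and KIF3B read 1800.1, 672 and 466 in DMSO, 1657, 670.0 and 406 in vemurafenib and 1517, 516 and 458 with siATF4, and KIF13A read 313 there. KIF3A read 179, 182 and 185, and KIF9 read 740.3, 640 and 586.

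Kinesins outside the KIF naming and the partners of both classes were read from lists. CENPE, the kinetochore kinesin, was at -2.78 and KIFC1, a minus-end spindle motor, at -1.79 with siBRAF in normal medium, and at -1.94 and -0.66 without glutamine. KIFC2 (0.96 and 0.84) and KIFC3 (-0.00 and -0.15) were within 2-fold. Of 16 mitotic partners measured, 14 lay 2-fold or more below siCont in siBRAF cells in normal medium (median -2.46), among them PRC1 (-2.88), which recruits KIF4A, RACGAP1 (-1.97), the partner of KIF23, TPX2 (-2.54), which targets KIF11 to the spindle, and AURKB (-2.89), the kinase that KIF20A carries. With siBRAF 7.6% of all genes were at least 2-fold lower in normal medium. In glutamine-free medium 11 of the 16 were lower and NUMA1 was higher, with a median of -1.39, beside 10.8% and 12.8% of all genes. After glutamine withdrawal in siCont cells 8 of 16 were lower, with a median of -0.96, beside 7.22% of all genes. After the same withdrawal in siBRAF cells none was 2-fold apart, and only 0.122% of all genes were. The proliferation marker MKI67 stood at -3.05 with siBRAF in normal medium, -1.96 without glutamine and -0.73 for glutamine withdrawal in siCont cells. Fewer dividing cells and less RNA per dividing cell cannot be told apart in these bulk samples.

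With siBRAF the cargo adaptors did not follow the mitotic kinesins. Of 13 adaptors measured, 12 passed the filter in siBRAF cells in normal medium (median of the 13, 0.25). Among the 12, 2 were higher by 2-fold or more and 0 were lower, beside 7.15% and 7.6% of all genes. The higher ones were TRAK1 (1.56), which ties kinesin-1 to mitochondria, and MAPK8IP3 (1.14), a kinesin-1 adaptor. TRAK1 read 104 with siCont and 309 with siBRAF in normal medium, 40.7 and 277 without glutamine, and 125 with siATF4, so it was high on both siBRAF arrays and low on the siCont glutamine-free array. TRAK2 read 110 and 141, 43.5 and 148, and 144, and was low only on the siCont glutamine-free array, as KIF3A was. For glutamine withdrawal in siCont cells TRAK1 (-1.33) and TRAK2 (-1.31) were at least 2-fold lower. They were 2 of the 11 adaptors that passed there, beside 7.22% of all genes, and 0 were higher, beside 5.76%. The median of the 13 was 0.08. The kinesin light chains KLC1 to KLC4 had differences between -0.23 and 0.25 with siBRAF in normal medium.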

How the data were processed

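The authors deposited linear intensities, which the submitters' processing notes credit to RMA, a multi-array summary of probe sets. The RMA version is not given in the sources used here. The arrays fall into 2 sets of different scale, so differences were taken only within a set, as differences of log2(intensity + 1) from the deposited values. That scale understates the change of genes at low levels. Of 54675 probe sets, 41097 have 1 gene symbol, 1801 have several, and 41043 of those with 1 were named through their RefSeq gene ID. For each of 19775 genes the probe set of highest mean log2 over the 8 arrays was used. Comparisons kept genes with at least 1 of the 2 values at or above its array's median (percentile 50). Classes are summarised without this filter, and counts at 2-fold with it. The only test was an additive model (limma 3.58.1, R 4.3.3, empirical Bayes with an intensity trend, Benjamini-Hochberg at 0.05 over 14220 genes). It was tried on data simulated from the same additive model, which cannot show how it behaves when effects depart from additivity. Values on every array are given for the mitotic kinesins, for other members at least 2-fold apart in any comparison, and for the 4 transport kinesins with the highest mean. The kinesins, classes and partner lists were chosen with earlier results of these data known. Alternatives covered the added constant, the filter, the probe set, quantile normalization, the fold, the class of KIF2A and KIF2B, the trend and left-out arrays.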

Additional observations from a re-analysis of the deposited data

Results flagged for a closer look

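KIF5C, a heavy chain of conventional kinesin, moved in opposite directions in the 2 backgrounds. With siBRAF it stood at -0.39 in log2(intensity + 1) in normal medium and at 0.60 without glutamine, and for glutamine withdrawal at -0.59 in siCont and 0.40 in siBRAF cells. These values rest on the same 4 arrays, and the difference between them was not tested. Another KIF5C probe set above the array median gave -0.61 and -0.42 with siBRAF, so it did not change sign.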

How the results depend on the processing

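The mitotic and transport medians moved by less than 1.5-fold under each alternative constant, probe set choice, normalization and class of KIF2A and KIF2B, though the transport median for glutamine withdrawal in siCont cells went from -0.12 to 0.017 with probe sets not ending in _s_at or _x_at. The model's mitotic count of 10 ranged from 6 to 11 when single arrays were left out, and the transport count of 3 from 2 to 8. With the 5 arrays of the medium set alone 6 mitotic kinesins passed, beside 4.96% of all genes. Beside 20.3% of all genes, 6 passed with probe sets not ending in _s_at or _x_at, which KIF18A, KIF20B and KIF22 lack. They also turned the sign of KIF23 with siBRAF in glutamine-free medium (0.12), where the remaining KIF23 probe set is near background, and of KIF9 with siBRAF (0.033 in normal medium, 0.097 without glutamine, 0.082 in the model). With the mean of all probe sets KIF20B stood at -0.85 and -0.46 with siBRAF. At 1.5-fold, 8 mitotic kinesins were lower without glutamine in siCont cells in place of 3, beside 16.7% of all genes in place of 7.22%. No paired analysis was possible because each condition has 1 array and the labels give no replicate numbers. Levels near the array median limit the sizes for KIF18A and KIF21B, and to a lesser degree for KIF15.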

Other observations

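Cytoplasmic dynein walks opposite to most kinesins. Of 22 dynein and dynactin genes measured, 1 was at least 2-fold higher and 2 were lower with siBRAF in normal medium, with a median of 0.13. Of all genes 14.8% were 2-fold apart in that comparison, a share near that of this list. The 2 lower ones were NDE1 (-1.55 in normal, -1.13 in glutamine-free medium), which acts with dynein in mitosis, and BICD1 (-1.49 and -3.39). The cargo adaptors BICD1 and BICD2 moved in opposite directions without glutamine in siCont cells, at 1.79 and -1.34, and stood at -0.11 and 0.22 in siBRAF cells. DYNC1LI2, a dynein light intermediate chain, was at -1.21 with siATF4 in vemurafenib and at -0.05 in normal medium.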
